A study of Mus musculus with 55 samples.

Results

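The 38 genes described here are Atf4, the transcription factor of the amino acid stress response, and 37 genes listed with it as its partners and targets. The set is a list of names that uses no measured value as a criterion, but it was chosen with earlier results of these data known. The genes were grouped by what their products do. The regulators are Atf4, Atf5, Ddit3, Cebpb, Cebpg, Trib3 and Nupr1 (7 genes). The stress effectors are Ddit4, Chac1, Sesn2, Stc2 and Vldlr (5 genes). The enzymes of amino acid and one-carbon metabolism are Asns, Psat1, Phgdh, Psph, Shmt2, Mthfd2, Aldh1l2 and Cth (8 genes). Cytosolic tRNA synthetases, which load amino acids onto tRNA, were represented by Aars, Cars, Eprs, Gars, Iars, Lars, Mars, Nars, Sars, Tars, Wars and Yars (12 genes). Amino acid transporters completed the set with Slc7a1, Slc7a3, Slc7a5, Slc7a11, Slc3a2 and Slc38a2 (6 genes). All 38 had counts in both tables, out of 28488 and 28212 genes counted in the maturation and the stimuli experiment. Stc2, a secreted glycoprotein, had a median of 2.02 and 1.92 CPM (normalized counts, scaled to a common library size) in the 2 experiments. Fewer than 2 samples of each exceeded the 5 CPM needed for testing, so that 37 genes were tested in each experiment.

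ATF4 is the output of the integrated stress response. Shortage of amino acids, protein folding stress in the endoplasmic reticulum and other insults activate kinases that phosphorylate the translation factor eIF2, which lowers general protein synthesis but favours translation of the Atf4 messenger. The ATF4 protein then binds, with C/EBP family partners, to composite sites called C/EBP-ATF response elements in genes that import, make and charge amino acids, and in regulators that limit the response. In neurons the same pathway has been tied to synaptic plasticity and memory. Only RNA was measured here, so ATF4 protein and eIF2 phosphorylation were not seen.

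The neurons came from the forebrain (cortex and hippocampus) of CD1 mouse embryos of mixed sex and were sequenced at the 3' end of transcripts with CEL-Seq2. In the maturation experiment (28 samples), cultures at 7 days in vitro (7DIV) and mature cultures were left unstimulated (Basal) or received 55 mM KCl, which depolarizes the membrane, or 50 μM bicuculline, which blocks GABA-A receptors, with potassium channels blocked as well by 2.5 mM 4-aminopyridine (Bic4AP), for 15 or 180 min. Each group had 3 samples except Bic4AP at 15 min and at 180 min in mature neurons, with 2 each. The mature samples carry the label 23 DIV and are called 21DIV here. In the stimuli experiment (27 samples), 21DIV cultures received 55 mM KCl or 50 μM bicuculline alone (Bic) for 15, 45 or 180 min (2 samples each) and were compared with 3 unstimulated samples. One label of the third sample gives the number 5 and another 2, and it is called basal replicate 5 here. Other cultures were silenced for 48 h with 1 μM tetrodotoxin (TTX), a blocker of voltage-gated sodium channels (basal TTX, 4 samples), and TTX was then washed out by exchanges with fresh medium for 15 min (3 samples), 45 min (2 samples) or 180 min (3 samples). These TTX withdrawal (TTXw) samples were compared with cultures still in TTX, and the protocol states that controls were washed in the same way. The labels do not say which samples came from separate cultures, so the p-values measure the spread between samples. In the stimulus comparisons that spread was estimated once per gene over all groups of the experiment, not from the compared groups alone.

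Counts on genes per library ranged from 1659263 to 4473908 at 7DIV, from 1783609 to 14008626 at 21DIV in the maturation experiment and from 1176887 to 3907601 in the stimuli experiment. The cultures held neurons and glia. The summed level of 8 neuronal markers was 4080 to 4378 CPM in 7DIV and 5117 to 6048 CPM in 21DIV basal cultures, that of 10 astrocyte markers 595 to 867 and 4662 to 5682 CPM, and that of 5 microglial markers 10.4 to 17.2 and 4.29 to 8.47 CPM. In bulk RNA of this kind, fewer cells of a type and less RNA per cell cannot be told apart. Throughout, a level is a normalized CPM value, a difference is a log2 fold change, and a gene is called changed at an adjusted p under 0.05 (edgeR's quasi-likelihood test, Benjamini-Hochberg over all genes tested) with a change of at least 1.5-fold.

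The element that ATF4 and its partners bind has the core TGATGNAA. It was searched on both strands of the RefSeq promoter windows (GRCm38.p6, the build called mm10, 250 bases before to 50 bases after each gene's start). Windows were available for 30 of the 38 genes, and those of 11 genes (36.7%) held at least 1 match, against 4.51% of all 27025 genes with a window (3.97% of all 32851 windows). Among them were 2 of 7 regulators (Nupr1, Trib3), 2 of 5 stress effectors (Chac1, Vldlr), 1 of 6 enzymes (Asns), 5 of 8 synthetases (among them Gars, Iars, Tars and Yars) and 1 of 4 transporters (Slc7a11). The matches of Trib3, Iars and Yars lay just after the start. A match is a run of letters and not a measured binding site, and no binding was measured here. The 30 bases around matches upstream of the start follow for some of the genes on which the results turn, written 5′ to 3′ on the strand of the gene, with the core in capitals (TTNCATCA is the core read on the opposite strand). In Slc7a11 the 2 matches faced each other and their windows overlapped. The members without a window were Aldh1l2, Cth, Cars, Lars, Nars, Wars, Slc7a3 and Slc7a5.
Asns, chr6:7693214-7693243, - strand, first capital 23 bases before the start: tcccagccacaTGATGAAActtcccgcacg
Chac1, chr2:119351038-119351067, + strand, first capital 193 bases before the start: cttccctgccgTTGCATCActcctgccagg
Nupr1, chr7:126625562-126625591, - strand, first capital 110 bases before the start: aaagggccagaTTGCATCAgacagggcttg
Slc7a11, chr3:50443661-50443690, - strand, first capital 66 bases before the start: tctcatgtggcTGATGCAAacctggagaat
Slc7a11, chr3:50443642-50443671, - strand, first capital 47 bases before the start: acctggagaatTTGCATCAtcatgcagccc
Gars, chr6:55037960-55037989, + strand, first capital 30 bases before the start: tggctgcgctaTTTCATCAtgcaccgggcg

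Across the 17 comparisons of a stimulated group with its control, 26 of the 38 genes were called higher at least once. Called lower at least once were 9, with some genes in both counts. The matching share over all genes was not determined, so these counts have no background to be read against. Single comparisons called up to 14.2% of all genes in either direction, which is not a like measure. Several of these comparisons share their control samples. Atf4, Nupr1, Slc7a5 and Slc3a2 were called higher most often, in 4 comparisons each, and none of these was ever called lower after a stimulus. Atf5, Ddit3, Ddit4, Cars, Slc7a3 and Slc38a2 were called in both directions. Cebpg, Vldlr, Phgdh, Cth, Iars, Mars, Nars and Yars passed the expression filter but were called in no stimulus comparison. Most calls fell in 4 of the 17 conditions. These were KCl at 15 and at 180 min and Bic4AP at 180 min in 21DIV neurons of the maturation experiment, and TTXw at 180 min. Over all genes, 6.21%, 4.88%, 14.2% and 14.0% were called in them. Bic at 45 min followed with 7 genes of the set, 6 of them lower, against 7.45% of all genes.

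**Figure D1:**
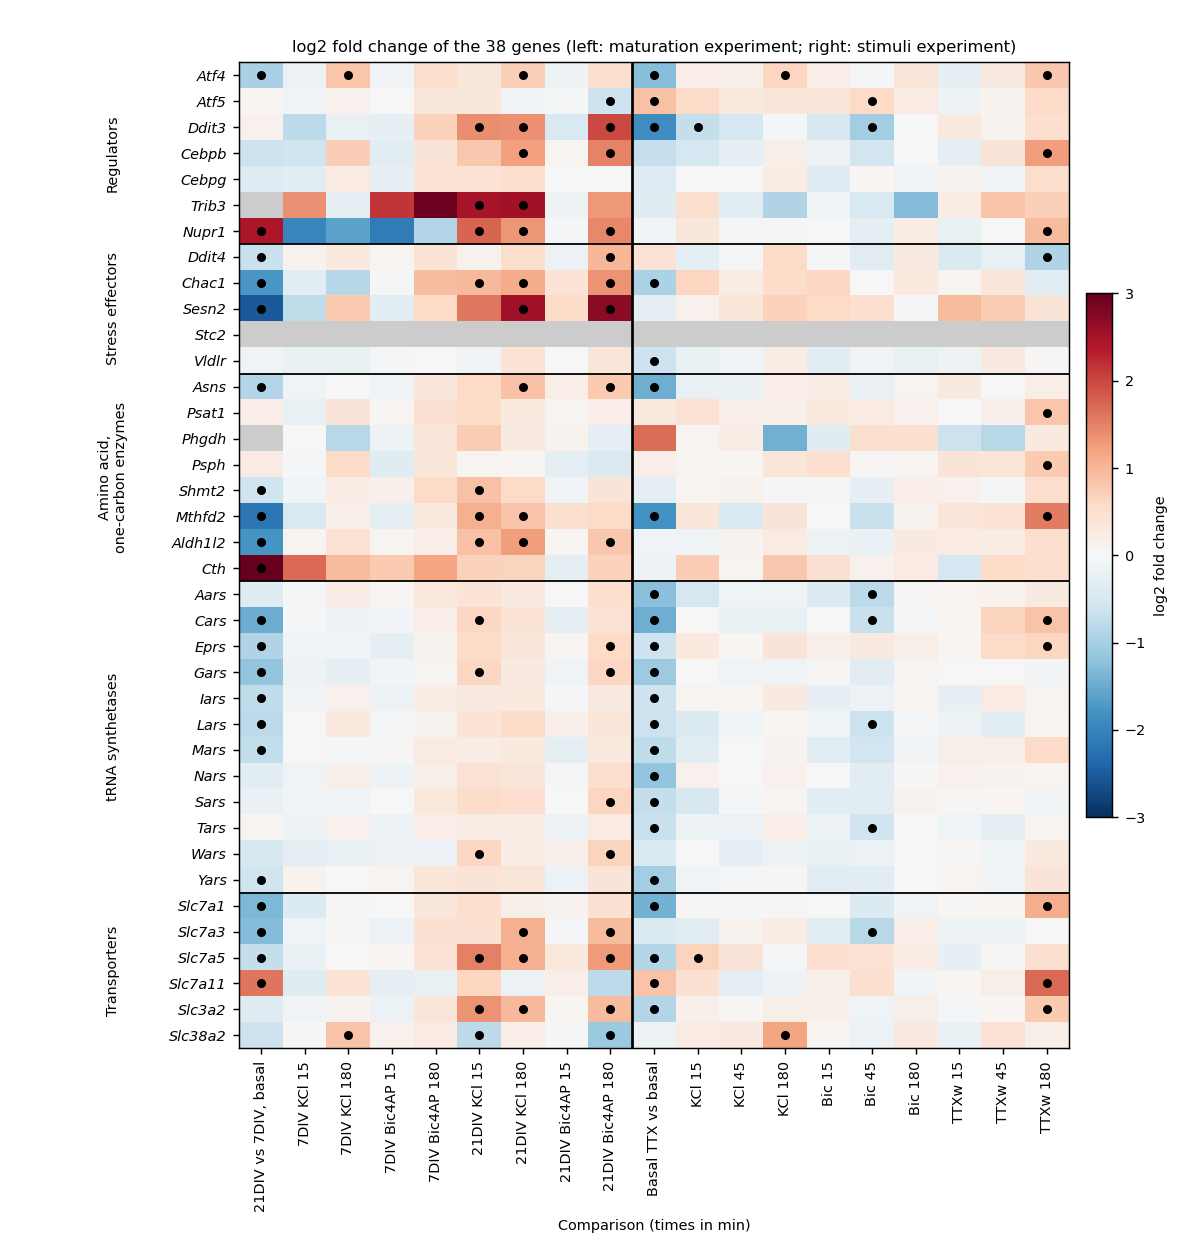
Log2 fold change of each of the 38 genes (rows, grouped by role) in the basal comparisons and the 17 stimulus comparisons (columns), with red for higher and blue for lower levels, a colour scale that ends at -3 and 3, black dots for called changes and grey for genes under the expression filter. The 21DIV against 7DIV and the basal TTX columns are mostly blue, and 21DIV KCl, 21DIV Bic4AP at 180 min and TTXw at 180 min are mostly red.

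In unstimulated neurons, most of the set was lower at 21DIV than at 7DIV. Of 35 genes tested in the 6 basal samples (Phgdh, Stc2 and Trib3 were under the filter), 18 were called lower and 3 higher, 21 in all. In the same comparison 33.1% of all genes were called, 14.9% lower and 18.2% higher. The median log2 fold change was -0.61 over the 35 genes and 0.01 over all genes tested. The 21 calls became 19 to 20 when any 1 sample was left out.

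Atf4 itself measured 739, 684 and 609 CPM in the 3 samples at 7DIV and 304, 328 and 386 CPM at 21DIV, a 1.96-fold lower level without overlap (log2 fold change -0.97, SE 0.13, adjusted p = 6.14e-05). Mthfd2, a mitochondrial enzyme of the folate cycle, fell from 60.6, 37.4 and 43.6 CPM to 7.96, 10.02 and 12.8 CPM (log2 fold change -2.16, SE 0.25, adjusted p = 1.77e-05). Its mitochondrial neighbour in that cycle, Aldh1l2, was 3.41-fold lower (adjusted p = 2.84e-05). Sesn2, a stress-induced inhibitor of mTORC1 that senses leucine, was called lower, from 7.11, 6.14 and 2.71 CPM to 1.38, 0.537 and 0.664 CPM (log2 fold change -2.52, SE 0.65, adjusted p = 0.00731), on only 3 to 8 counts per 21DIV sample. It passed the expression filter only through 7DIV samples, so its direction is no further support and its size is not ranked here. For Chac1, an enzyme that degrades glutathione, levels were 134, 137 and 124 CPM at 7DIV and 30.4, 33.8 and 50.03 CPM at 21DIV (log2 fold change -1.75, SE 0.19, adjusted p = 8.09e-06). The mTORC1 inhibitor Ddit4 was 1.59-fold lower.

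Among the synthetases, 7 of 12 were called lower and none higher. Cars went from 119, 126 and 128 CPM to 42.4, 42.6 and 46.4 CPM (log2 fold change -1.48, SE 0.15, adjusted p = 3.67e-06), and Gars from 478, 512 and 471 CPM to 225, 194 and 214 CPM (log2 fold change -1.18, SE 0.12, adjusted p = 5.21e-06). The other 5 were Eprs, Iars, Lars, Mars and Yars, with log2 fold changes of -0.89 to -0.60. Aars, Nars, Sars, Tars and Wars were not called. Both transporters of cationic amino acids were called lower: Slc7a1 measured 313, 249 and 272 CPM at 7DIV and 97.02, 106 and 118 CPM at 21DIV (log2 fold change -1.35, SE 0.14, adjusted p = 6.30e-06) and Slc7a3 differed by -1.31 (adjusted p = 0.000603). Slc7a5, the carrier of large neutral amino acids, was 1.65-fold lower (adjusted p = 0.0163), while its partner chain Slc3a2 differed by -0.37 (adjusted p = 0.0313), under the fold limit. Asns, which makes asparagine, was lower by 1.84-fold and Shmt2, which makes glycine from serine, by 1.52-fold. The log2 fold change of Psat1 was 0.19 and that of Psph 0.25, neither called. Atf5, Cebpb, Cebpg, Vldlr and Slc38a2 were the other genes tested and not called.

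The 3 genes called higher at 21DIV were Cth, which makes cysteine from cystathionine, Nupr1, a small stress-induced chromatin protein, and Slc7a11, the cystine importer. Cth was at 1.42, 0 and 1.35 CPM at 7DIV and 5.88, 7.16 and 12.7 CPM at 21DIV (log2 fold change 3.04, SE 0.62, adjusted p = 0.00149). Nupr1 went from 1.42, 1.84 and 0.813 CPM to 7.78, 4.47 and 7.75 CPM (log2 fold change 2.43, SE 0.55, adjusted p = 0.00335), and Slc7a11 from 10.9, 14.7 and 12.2 CPM to 32.5, 34.2 and 44.2 CPM (log2 fold change 1.60, SE 0.23, adjusted p = 0.000119). Slc7a11 separated the stages without overlap. Cth and Nupr1 did so too, but they passed the expression filter only through their 21DIV samples. Their direction and separation are therefore no further support. At 7DIV, Cth and Nupr1 rested on 0 to 5 counts and on 3 counts per sample, so that the sizes of their folds are poorly fixed. Glial markers moved in the same direction: 9 of 10 astrocyte markers and 7 of 7 tested oligodendrocyte lineage markers were called higher, and their summed levels were 595 to 867 against 4662 to 5682 CPM and 464 to 729 against 2391 to 3159 CPM, with no marker at 0 throughout either group. Their part in these differences was not tested.

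In 7DIV neurons few genes of the set were called. The spread behind these tests was estimated over the samples of both stages, and 7DIV samples were not analysed alone. KCl for 180 min gave 2 called genes, both higher, against 1.98% of all genes. Atf4 measured 739, 684 and 609 CPM in basal and 1031, 1306 and 1255 CPM in KCl samples (log2 fold change 0.82, SE 0.14, adjusted p = 0.000931), and Slc38a2, which imports small neutral amino acids together with sodium, 462, 458 and 504 CPM against 943, 821 and 808 CPM (log2 fold change 0.85, SE 0.23, adjusted p = 0.0459). In both genes every KCl sample lay above every basal sample. Chac1 lay on the other side, at 52.8, 85.5 and 80.7 CPM after KCl against 134, 137 and 124 CPM, below all basal samples but not called (adjusted p = 0.0733). Without any 1 of the 6 samples compared, 1 gene remained called, Atf4, and Slc38a2 was lost each time.

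No gene of the set was called at 7DIV after KCl for 15 min, Bic4AP for 15 min or Bic4AP for 180 min, and neither was any other gene (0.0%, 0.0% and 0.0% of all genes called). At an unadjusted p under 0.05, edgeR found 4, 3 and 10 of 37 genes of the set in these comparisons, against 5.61%, 6.75% and 5.97% of all genes, and DESeq2 called 0, 0 and 0. After Bic4AP for 180 min, however, 33 of the 37 log2 fold changes were positive, with a median of 0.34 against -0.00320 over all genes. Chac1 reached 248, 264 and 244 CPM, compared with 134, 137 and 124 CPM in basal samples, and Trib3, a pseudokinase that restrains ATF4, 5.12, 9.21 and 5 CPM compared with 0.474, 1.23 and 0.813 CPM. Neither overlapped its control, and neither passed after adjustment (adjusted p = 0.542 and 0.542). Atf4 was at 888 to 1054 CPM in these samples and at 609 to 739 CPM in basal ones, with a log2 fold change of 0.53 (adjusted p = 0.542).

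**Figure D2:**
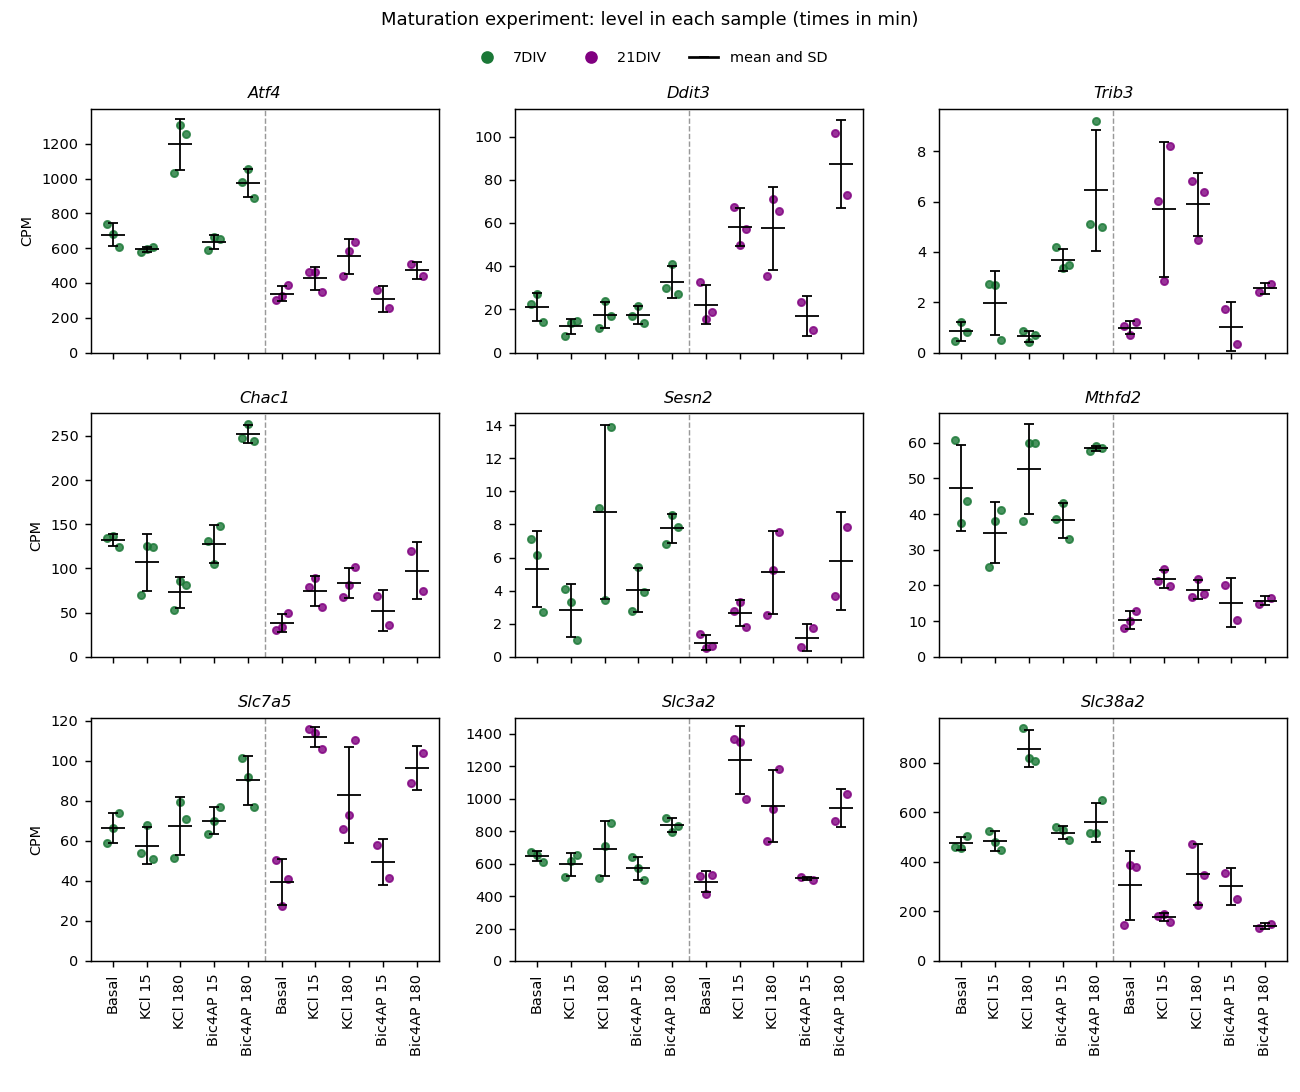
CPM of 9 genes in each sample of the maturation experiment (points, green for 7DIV and purple for 21DIV, linear axes from 0), with the mean and SD of each group as bars. Atf4, Chac1 and Mthfd2 are lower in 21DIV than in 7DIV basal samples, and Ddit3, Slc7a5 and Slc3a2 are higher in 21DIV samples after KCl and after 180 min of Bic4AP than in 21DIV basal samples.

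In 21DIV neurons of the maturation experiment, KCl for 15 min was followed by higher levels of regulators, one-carbon enzymes and the Slc3a2 and Slc7a5 pair. Of 37 genes tested, 13 were called, 12 higher and 1 lower. Of all genes, 6.21% were called, 3.2% higher and 3.01% lower. The median log2 fold change was 0.56 in the set and 0.00140 over all genes.

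Trib3 was at 1.04, 0.716 and 1.22 CPM in basal samples and 6.03, 2.86 and 8.19 CPM after KCl (log2 fold change 2.48, SE 0.51, adjusted p = 0.00259). Nupr1 measured 7.78, 4.47 and 7.75 CPM against 20.9, 19.3 and 27.8 CPM (log2 fold change 1.75, SE 0.34, adjusted p = 0.00159), and Ddit3, which encodes the transcription factor CHOP, 32.5, 15.6 and 18.6 CPM against 67.5, 49.8 and 57.1 CPM (log2 fold change 1.40, SE 0.29, adjusted p = 0.00304). Each of the 3 regulators separated KCl from basal samples without overlap. Slc7a5 rose from 50.2, 27.2 and 41.1 CPM to 116, 114 and 106 CPM (2.83-fold, SE of the log2 fold change 0.20, adjusted p = 3.60e-05) and Slc3a2, the heavy chain with which it forms a transporter, from 523, 412 and 530.3 CPM to 1369, 1349 and 996 CPM (log2 fold change 1.34, SE 0.16, adjusted p = 1.42e-05). The mitochondrial enzymes Mthfd2, Shmt2 and Aldh1l2 had log2 fold changes of 1.06, 0.89 and 0.89. Chac1 rose by 0.96 and the synthetases Cars, Gars and Wars by 0.61 to 0.63. The 3' end of Ddit3 overlaps that of Mars on chromosome 10, and whether counting used strand is not given in the sources used here, so reads of the 2 genes may be shared. Mars differed by 0.23 (adjusted p = 0.409).

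Slc38a2 was the gene called lower, at 146, 389 and 381 CPM in basal and 180.2, 191 and 158 CPM in KCl samples (log2 fold change -0.79, SE 0.23, adjusted p = 0.0295). The groups overlapped at basal replicate 1 (146 CPM), and without that sample the log2 fold change was -1.14. The call was lost without any of the other 5 samples, with transcripts summed and with a replicate term. Atf4 was at 466, 466 and 347 CPM against 304, 328 and 386 CPM, a difference of 0.33 (adjusted p = 0.156) that did not pass the test. Without basal replicate 2 the count of called genes fell from 13 to 8, the lowest value with 1 sample left out. The summed astrocyte markers were at 4212 to 4781 CPM against 4662 to 5682 CPM in basal samples, with Fgfr3 called higher, and those of the oligodendrocyte lineage at 1899 to 2142 CPM against 2391 to 3159 CPM, with Olig1 called lower. Neuronal markers summed to 4465 to 5005 CPM against 5117 to 6048 CPM, with Rbfox3 called lower, and the part of these markers was not tested.

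After 180 min of KCl, 13 genes were called in 21DIV neurons, all of them higher. The shares over all genes were 4.88% called, 2.98% higher and 1.9% lower, and the median log2 fold change was 0.47 in the set against -0.02 over all genes. Among the 7 regulators, 5 were called: Atf4, Cebpb, Ddit3, Nupr1 and Trib3.

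Atf4 was at 441, 583 and 638 CPM against 304, 328 and 386 CPM in basal samples (log2 fold change 0.71, SE 0.14, adjusted p = 0.00224). Sesn2 measured 2.53, 5.22 and 7.55 CPM against 1.38, 0.537 and 0.664 CPM (log2 fold change 2.54, SE 0.58, adjusted p = 0.00784) and Trib3 6.82, 4.47 and 6.37 CPM against 1.04, 0.716 and 1.22 CPM (log2 fold change 2.51, SE 0.52, adjusted p = 0.00304). These 2 genes carried the largest changes, on few counts. The values of Ddit3 were 35.6, 71.2 and 65.6 CPM (log2 fold change 1.37, SE 0.30, adjusted p = 0.00469) and those of Nupr1 14.8, 16.4 and 19.6 CPM (log2 fold change 1.33, SE 0.35, adjusted p = 0.0190), both above all basal samples. Cebpb, a C/EBP factor that pairs with ATF4, differed by 1.24, and Aldh1l2, Asns and Mthfd2 by 1.25, 0.89 and 0.85. The transporters Slc7a3, Slc7a5 and Slc3a2 were higher by 1.07, 1.07 and 0.96 on the log2 scale, and Chac1 by 1.12. No synthetase was called at this time, where the 12 had a median log2 fold change of 0.33. The count of 13 fell to 7 without KCl 180 min replicate 3 and lay between 7 and 15 over the 6 samples left out in turn. The calls of Nupr1 and Mthfd2 held in 2 of these 6 fits and those of Sesn2 and Asns in 3. The other called genes kept theirs in 5 or 6. With transcripts summed, Nupr1 lost its call. Of the 7 oligodendrocyte lineage markers tested, Olig1 and Pdgfra were called lower (summed level 1151 to 1657 CPM against 2391 to 3159 CPM in basal samples), and the summed astrocyte markers were at 2870 to 6042 CPM against 4662 to 5682 CPM. Their part in the result was not tested.

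Levels at 180 min of KCl were compared directly with those at 15 min. A call was made for 1 gene, Slc38a2, with 180.2, 191 and 158 CPM at 15 min and 474, 228 and 346 CPM at 180 min (log2 fold change 0.99, SE 0.23, adjusted p = 0.0336), against 0.903% of all genes. It kept its call without KCl 180 min replicate 2 and lost it without any of the other 5 samples. Slc7a11 differed by -0.81 (adjusted p = 0.139) and Gars by -0.36 (adjusted p = 0.0822), in the direction of lower levels at 180 min but not past the threshold.

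Bic4AP gave no called gene of the set in 21DIV neurons at 15 min (0.0511% of all genes), where edgeR found 0 genes of the set at an unadjusted p under 0.05 (5.30% of all genes) and DESeq2 called 0. At 180 min, 17 of 37 were called, 15 higher and 2 lower. Over all genes the shares were 14.2% called, 7.39% higher and 6.83% lower, with a median log2 fold change of -0.02 against 0.53 in the set.

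Ddit3 measured 102 and 73 CPM in the 2 samples, against 32.5, 15.6 and 18.6 CPM in basal samples (log2 fold change 1.98, SE 0.32, adjusted p = 7.79e-05). Sesn2 was at 3.69 and 7.87 CPM against 1.38, 0.537 and 0.664 CPM (log2 fold change 2.70, SE 0.63, adjusted p = 0.00343), Cebpb at 29.3 and 23.6 CPM against 10.03, 8.41 and 9.63 CPM (log2 fold change 1.499, SE 0.30, adjusted p = 0.000944). Nupr1 was at 17.7 and 19 CPM (log2 fold change 1.45, SE 0.38, adjusted p = 0.00835). In these 4 genes both stimulated samples exceeded all 3 basal samples. With 1 sample left out, the calls of Ddit3 and Cebpb held in 5 of 5 fits, that of Sesn2 in 4 and that of Nupr1 in 2. Slc7a5, Slc3a2 and Slc7a3 again were the transporters called higher, by 1.28, 0.95 and 0.95. Chac1 and Ddit4 were higher by 1.35 and 0.99, Aldh1l2 and Asns by 0.81 and 0.79. The 4 synthetases called higher were Eprs, Gars, Sars and Wars, with log2 fold changes of 0.59 to 0.67.

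The genes called lower were Slc38a2, at 134 and 151 CPM against 146, 389 and 381 CPM (log2 fold change -1.10, SE 0.27, adjusted p = 0.00494), and Atf5, a relative of Atf4 that is itself induced in this response, at 68 and 83.04 CPM against 96.5, 115 and 134 CPM (log2 fold change -0.61, SE 0.21, adjusted p = 0.0467). Slc38a2 overlapped with basal replicate 1 only. The log2 fold change of Atf4 was 0.48 (SE 0.16, adjusted p = 0.0334), past the p threshold but under 1.5-fold, with 506 and 438 CPM against 304, 328 and 386 CPM. The count of 17 fell to 7 without Bic4AP 180 min replicate 2 and to 10 without basal replicate 2. Of the astrocyte markers, 3 of 10 were called lower and none higher in these samples, and summed levels of 1772 to 3413 CPM against 4662 to 5682 CPM. Among oligodendrocyte lineage markers, 3 of 7 tested were called lower and Mbp higher, with sums of 1009 to 1648 CPM against 2391 to 3159 CPM. Neuronal markers had 3 of 8 called lower (Rbfox3, Slc17a7 and Tubb3, summed level 4431 to 4681 CPM against 5117 to 6048 CPM). The microglial markers Aif1 and Cx3cr1 were called higher, at a sum of 19.5 to 20.6 CPM against 4.29 to 8.47 CPM. Their part in the changes was not tested.

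Directly between 180 and 15 min of Bic4AP, 12 genes were called against 12.2% of all genes, 11 of them higher at the later time. Ddit3 was at 23.4 and 10.3 CPM at 15 min and 102 and 73 CPM at 180 min (log2 fold change 2.44, SE 0.41, adjusted p = 0.000186), Nupr1 at 7.43 and 5.84 CPM and 17.7 and 19 CPM (log2 fold change 1.48, SE 0.47, adjusted p = 0.0328), Cebpb at 10.8 and 9.28 CPM and 29.3 and 23.6 CPM (log2 fold change 1.41, SE 0.37, adjusted p = 0.0119). Ddit4 measured 31.99 and 17.2 CPM at 15 min and 52.3 and 54.5 CPM at 180 min (log2 fold change 1.16, SE 0.25, adjusted p = 0.00218). These values did not overlap, which says little with 2 samples at each time, and the share of all genes without overlap was not determined. With 1 sample left out, the call of Ddit3 held in 4 of 4 fits, that of Ddit4 in 3, that of Cebpb in 1 and that of Nupr1 in 0. The remaining genes higher at 180 min were Slc7a3, Slc7a5, Chac1, Slc3a2, Gars, Cars and Atf4 (log2 fold changes 0.62 to 0.98). Slc38a2 was lower at 180 min (-1.08). The count became 5 without Bic4AP 180 min replicate 2 and 4 without Bic4AP 15 min replicate 2.

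**Figure D3:**
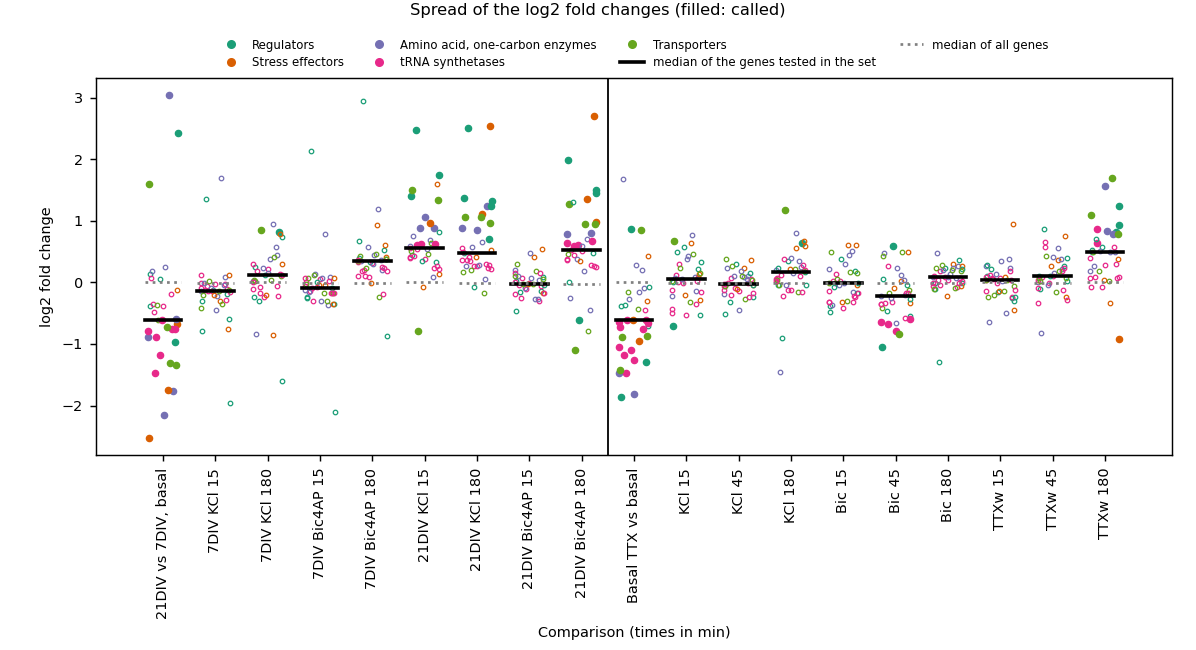
Log2 fold change of each gene of the set (points coloured by role, filled where called) in 19 comparisons, with the set's median as a black bar and the median of all genes tested as a dotted grey bar. The set's median lies below that of all genes in the 2 basal comparisons and above it in 21DIV KCl at 15 and 180 min, 21DIV Bic4AP at 180 min and TTXw at 180 min.

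KCl and Bic4AP at 180 min were both compared with the same 3 basal samples, so their values are given side by side. Ddit3 changed by 1.37 after KCl and 1.98 after Bic4AP, Sesn2 by 2.54 and 2.70, Slc7a5 by 1.07 and 1.28. Ddit4 had values of 0.53 and 0.99, Trib3 2.51 and 1.31, and Slc38a2 0.19 and -1.10. The difference between these stimuli was not tested in the maturation experiment.

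Whether the 180 min responses depended on maturation was tested as the difference between the 21DIV and the 7DIV response, with calls at an adjusted p under 0.05. For KCl, 1 gene of the set was called (0.775% of all genes): Chac1 went from 134, 137 and 124 to 52.8, 85.5 and 80.7 CPM at 7DIV and from 30.4, 33.8 and 50.03 to 67.8, 80.7 and 102 CPM at 21DIV, of which only the 21DIV change was called by itself. The responses differed by 1.97 (SE 0.35, adjusted p = 0.00620), and this call held whichever of the 12 samples was left out. Of the 37 differences, 30 were positive, with a median of 0.43 against -0.01 over all genes. The count rose to 3 without 7DIV KCl 180 min replicate 3, to 6 without 21DIV KCl 180 min replicate 1 and to 5 without 21DIV basal replicate 1.

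For Bic4AP, 2 genes were called (4.94% of all genes). Slc38a2 went from 462, 458 and 504 CPM to 515, 515 and 651 CPM with stimulation at 7DIV and from 146, 389 and 381 CPM to 134 and 151 CPM at 21DIV (difference of responses -1.34, SE 0.35, adjusted p = 0.0234). Gars went from 478, 512 and 471 CPM to 530.2, 526 and 498 CPM at 7DIV and from 225, 194 and 214 CPM to 330 and 315 CPM at 21DIV (difference 0.52, SE 0.15, adjusted p = 0.0451). The Gars call held in 1 of 11 fits with a sample left out and that of Slc38a2 in 6 of 11. Leaving out samples moved this count between 0 and 6. It was 0 without 21DIV basal replicate 2 or 3, 7DIV Bic4AP 180 min replicate 3 or 21DIV Bic4AP 180 min replicate 2 or 3, 1 without any 7DIV basal sample or 7DIV Bic4AP 180 min replicate 1 or 2, and 6 without 21DIV basal replicate 1. For the other 35 genes a difference between stages was not shown, whether or not they were called at 21DIV. Atf4, for instance, gave an interval of -0.51 to 0.27 (95%) for the difference of its KCl responses.

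In the stimuli experiment, cultures silenced with TTX for 48 h held less RNA of most genes of the set than spontaneously active cultures. Of 37 genes tested, 22 were called, 20 lower and 2 higher. Over all genes 21.6% were called, 10.8% lower and 10.8% higher. The median log2 fold change was -0.62 in the set and 0.0005 over all genes. With any 1 of the 7 samples left out, 19 to 23 genes were called.

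Atf4 was at 391, 436 and 352 CPM in basal samples and 150.4, 141, 189.7 and 164 CPM in basal TTX samples (log2 fold change -1.29, SE 0.11, adjusted p = 7.32e-12). Ddit3 decreased from 49.6, 51.01 and 69.4 CPM to 15.97, 12.8, 14.3 and 17.7 CPM (log2 fold change -1.87, SE 0.21, adjusted p = 4.14e-09), and Mthfd2 from 20.9, 26.1 and 22.8 CPM to 3.33, 4.65, 10.02 and 7.96 CPM (log2 fold change -1.80, SE 0.26, adjusted p = 5.42e-07). All 3 separated the groups without overlap. Asns measured 88.02, 114 and 88.7 CPM and 27.9, 38.9, 37.9 and 34.4 CPM (log2 fold change -1.47, SE 0.15, adjusted p = 9.53e-10), and Chac1 was 1.93-fold lower. The log2 fold change of Vldlr, a lipoprotein and reelin receptor, was -0.62 (adjusted p = 0.00335). Among the enzymes tested only Asns and Mthfd2 were called, and Aldh1l2, Cth, Psat1, Psph, Shmt2 and Phgdh were not, with log2 fold changes of -0.27 to 1.68, the last on very few counts.

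Of the 12 synthetases, 11 were called lower, and the exception was Wars at -0.44 (adjusted p = 0.0153). Cars measured 52.8, 45.1 and 48.5 CPM in basal and 15.3, 15.1, 21.5 and 18.4 CPM in TTX samples (log2 fold change -1.47, SE 0.19, adjusted p = 1.21e-07). Aars was at 428, 537 and 462 CPM against 198, 180.1, 229.7 and 187 CPM (log2 fold change -1.26, SE 0.12, adjusted p = 5.92e-11), and Nars and Gars were 2.26-fold and 2.13-fold lower. The remaining 7 (Yars, Mars, Sars, Tars, Lars, Eprs, Iars) differed by -1.05 to -0.61, and Eprs and Iars overlapped between groups. Slc7a1 showed 152, 171 and 161 CPM and 53.2, 59.3, 75.2 and 55.4 CPM (log2 fold change -1.42, SE 0.13, adjusted p = 3.75e-11), while Slc7a5 and Slc3a2 were 1.85-fold and 1.83-fold lower. Called higher in TTX were Slc7a11, at 34.1, 52.1 and 21.6 CPM against 71.9, 67.4, 72.3 and 51.7 CPM (log2 fold change 0.85, SE 0.21, adjusted p = 0.00166), where basal replicate 2 (52.1 CPM) reached into the range of the TTX samples, and Atf5, at 73.4, 78.9 and 82.3 CPM against 139.7, 131, 160.3 and 143 CPM (log2 fold change 0.87, SE 0.16, adjusted p = 3.40e-05).

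Astrocyte and oligodendrocyte markers were higher in TTX cultures. All 10 astrocyte markers were called higher, with summed levels of 2639 to 3242 CPM in basal and 7441 to 8493 CPM in TTX samples, and 5 of 7 oligodendrocyte lineage markers, with sums of 752 to 1198 and 2098 to 2169 CPM. The 8 neuronal markers summed to 5237 to 5466 and 4485 to 4973 CPM, and 1 of them (Snap25) was called lower. Their part in the changes of the set was not tested. Of the 20 genes lower in TTX, 13 (65.0%) were also among the 18 lower at 21DIV than at 7DIV (72.2% of those), in samples of the other experiment: Atf4, Asns, Mthfd2, Chac1, Cars, Eprs, Gars, Iars, Lars, Mars, Yars, Slc7a1 and Slc7a5. Of all genes tested in both comparisons, the 284 lower in both were 24.1% of the 1180 lower in TTX and 18.6% of the 1528 lower at 21DIV. With 1 sample left out, the stage calls of Yars and Slc7a5 held in 2 and 4 of 6 fits. The TTX calls of Iars, Eprs and Lars held in 3, 4 and 5 of 7. Atf4, Asns, Mthfd2, Chac1, Cars, Gars, Mars and Slc7a1 kept both calls in every such fit. For Atf4, Mthfd2 and Cars the transcript counted differed between the experiments. Ddit3 was not one of the 13, with basal levels of 14.4 to 27 CPM at 7DIV and 15.6 to 32.5 CPM at 21DIV (log2 fold change 0.13, adjusted p = 0.778).

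Withdrawal of TTX called no gene of the set at 15 min (0.0% of all genes) or at 45 min (0.383%), where edgeR found 3 and 4 of them at an unadjusted p under 0.05 (6.30% and 10% of all genes) and DESeq2 called 0 and 0. At 180 min, 12 genes were called against cultures still in TTX, 11 higher and 1 lower. Of all genes 14.0% were called, 7.33% higher and 6.69% lower, and the medians were 0.50 in the set and 0.02 over all genes. Between 10 and 16 genes were called when any 1 of the 7 samples was left out.

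Slc7a11 changed most, from 71.9, 67.4, 72.3 and 51.7 CPM in TTX to 239, 234 and 156 CPM at 180 min (log2 fold change 1.70, SE 0.19, adjusted p = 1.16e-08). Mthfd2 went from 3.33, 4.65, 10.02 and 7.96 CPM to 24.2, 18.9 and 15.2 CPM (log2 fold change 1.56, SE 0.28, adjusted p = 7.19e-05), and Slc7a1 from 53.2, 59.3, 75.2 and 55.4 CPM to 138, 133 and 114 CPM (log2 fold change 1.10, SE 0.14, adjusted p = 1.25e-07). Every withdrawal sample exceeded every TTX sample for each of these. Atf4 rose from 150.4, 141, 189.7 and 164 CPM to 281, 292 and 275 CPM (log2 fold change 0.81, SE 0.11, adjusted p = 1.13e-06), and Cebpb from 9.31, 8.14, 16.5 and 15.6 CPM to 29.4, 20.4 and 42.5 CPM (log2 fold change 1.25, SE 0.32, adjusted p = 0.00417). Nupr1, Psat1 and Psph were higher by 0.94, 0.84 and 0.79, where Psat1 and Psph act in serine synthesis. Slc3a2 was 1.72-fold and the synthetases Cars and Eprs 1.82-fold and 1.56-fold higher. Ddit4 was the gene called lower, at 32.1, 18.9 and 37.96 CPM against 48.6, 44.8, 65.1 and 57.9 CPM (log2 fold change -0.91, SE 0.21, adjusted p = 0.00115).

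The mean levels of the genes lower in TTX differed at 180 min of withdrawal. Slc3a2 was at 914 ± 35.8 CPM (SD, n = 3) in basal, 499 ± 10.8 CPM (SD, n = 4) in TTX and 858 ± 81.6 CPM (SD, n = 3) after withdrawal, and Atf4 at 393 ± 42.5 CPM (SD, n = 3), 161 ± 21.1 CPM (SD, n = 4) and 283 ± 8.38 CPM (SD, n = 3). Gars, by contrast, had 452 ± 43.7 CPM (SD, n = 3), 212 ± 18.7 CPM (SD, n = 4) and 199.8 ± 15.3 CPM (SD, n = 3), with a 95% interval of -0.30 to 0.14 for the log2 change on withdrawal. The intervals were -0.16 to 0.55 for Asns, -0.15 to 0.32 for Nars, 0.04 to 0.52 for Aars and 0.00 to 0.99 for Ddit3, so a 1.5-fold rise was outside the interval for Gars, Asns, Nars and Aars. The basal and the withdrawal comparison share the 4 TTX samples.

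Cell type markers also moved at this time. Of 8 neuronal markers, 4 were called lower (summed level 2667 to 3196 CPM against 4485 to 4973 CPM in TTX), and 5 of 10 astrocyte markers were called higher (10910 to 15240 against 7441 to 8493 CPM), as were 4 of 7 oligodendrocyte lineage markers (2985 to 3704 against 2098 to 2169 CPM). No astrocyte marker was at 0 throughout a group. Their part in the rise of Slc7a11 and the other genes was not tested.

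Against 15 min of withdrawal, 11 genes were called at 180 min, all higher, with 12.8% of all genes called. Slc7a11 was at 66.9, 53.9 and 79.4 CPM at 15 min, Cebpb at 4.53, 17.98 and 11.3 CPM, Mthfd2 at 9.07, 10.8 and 5.63 CPM and Nupr1 at 13.98, 9.35 and 6.76 CPM, all below the 180 min samples, and their log2 fold changes were 1.65, 1.54, 1.21 and 1.17 (adjusted p = 1.41e-07, 0.00182, 0.00245 and 0.00216). Atf4, Slc7a1, Slc3a2, Psat1, Cars, Atf5 and Slc7a5 were higher by 0.73 to 1.07. At 45 min the 2 samples of Atf4 stood at 191 and 197 CPM, above all 4 TTX samples and below all 180 min samples, but the change of 0.27 (adjusted p = 0.482) was not called.

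**Figure D4:**
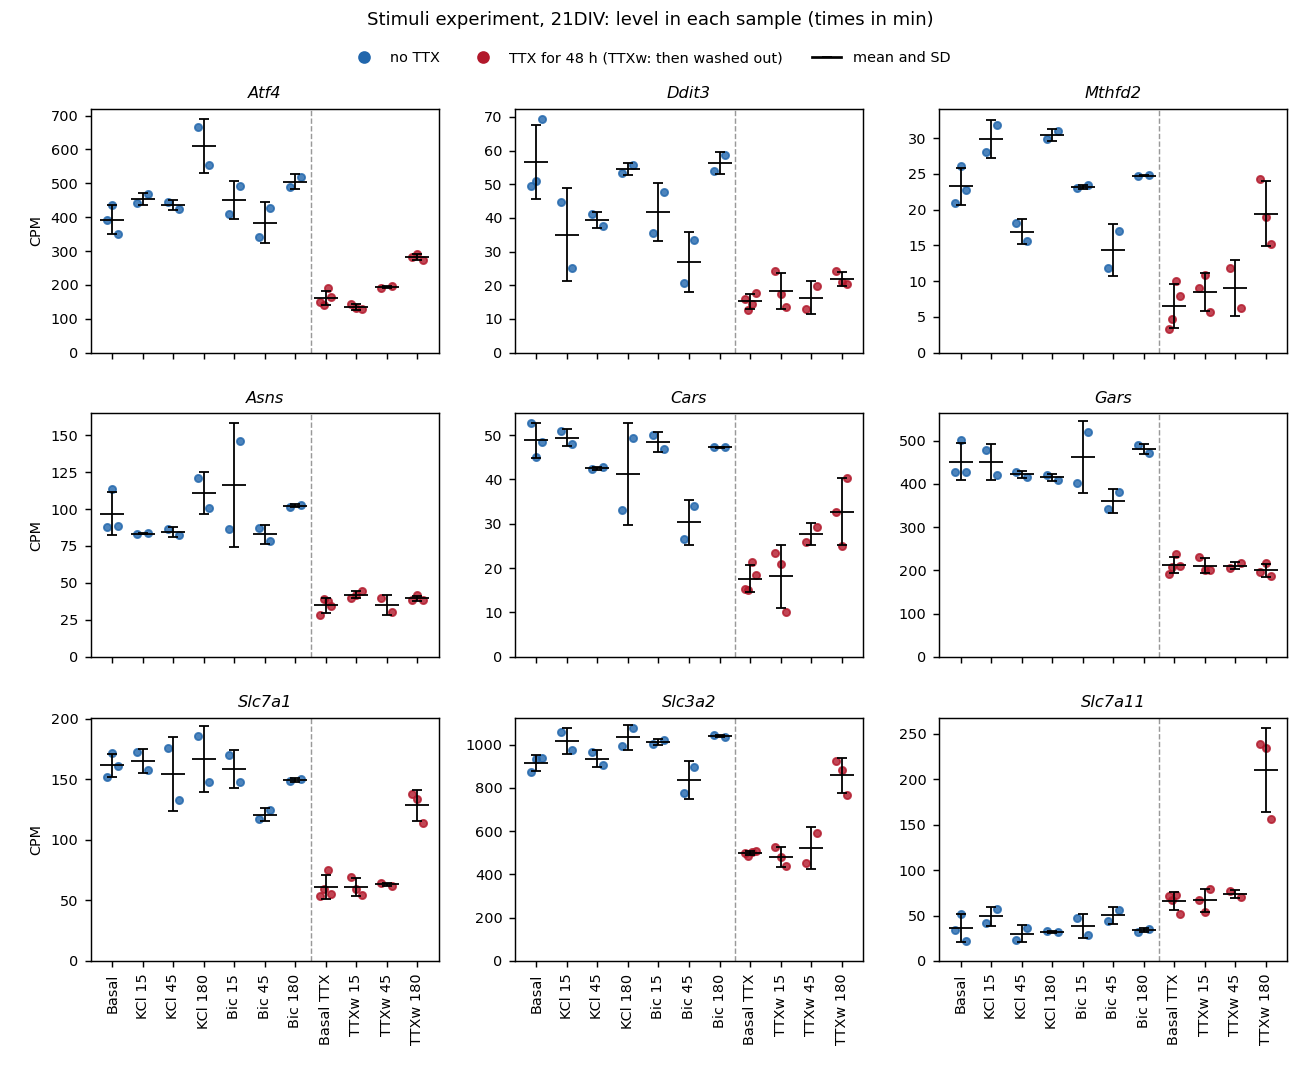
CPM of 9 genes in each sample of the stimuli experiment (points, blue without and red with TTX treatment, linear axes from 0), with the mean and SD of each group as bars. All 9 except Slc7a11 are lower in the 4 basal TTX samples than in the 3 basal samples, and after 180 min of withdrawal Slc3a2 is at 768 to 926 CPM and Gars at 186 to 216 CPM.

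KCl changed few genes of the set in this experiment. At 15 min, 2 were called against 7.23% of all genes: Ddit3 was lower, with 44.7 and 25.3 CPM against 49.6, 51.01 and 69.4 CPM in basal samples (log2 fold change -0.71, SE 0.22, adjusted p = 0.0352), and Slc7a5 higher, with 162 and 144 CPM against 81.1, 114 and 94.05 CPM (log2 fold change 0.67, SE 0.17, adjusted p = 0.00900). This count was 0 without basal replicate 1, 1 without basal replicate 5 or KCl 15 min replicate 2, and 5 without basal replicate 2. At this time 4 of 10 astrocyte markers (4781 to 4815 against 2639 to 3242 CPM summed), 4 of 7 of the oligodendrocyte lineage (1366 to 1495 against 752 to 1198 CPM) and 2 of 8 neuronal ones (6409 to 7110 against 5237 to 5466 CPM) were called higher, and their part was not tested. None was called at 45 min (0.765% of all genes), where edgeR gave 2 at an unadjusted p under 0.05 (11.2% of all genes) and DESeq2 called 0. At 180 min, 2 were called higher (0.765% of all genes). Slc38a2 measured 1004 and 954 CPM against 397, 446 and 454 CPM (log2 fold change 1.18, SE 0.19, adjusted p = 0.00029) and Atf4 667 and 554 CPM against 391, 436 and 352 CPM (log2 fold change 0.63, SE 0.13, adjusted p = 0.00594). Without basal replicate 5 or KCl 180 min replicate 1, only Slc38a2 was called.

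Bic alone called no gene of the set at 15 min (3.42% of all genes) and none at 180 min (0.765%). At an unadjusted p under 0.05 edgeR gave 6 and 1 of 37, against 16.5% and 8.57% of all genes. DESeq2 called 0 and 0, and without basal replicate 2 the count at 15 min was 1. At 45 min, 7 genes were called, 6 of them lower. The shares over all genes were 7.45% called, 2.95% lower and 4.5% higher, and the median was -0.22 in the set against -0.01 over all genes.

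Ddit3 was at 20.5 and 33.3 CPM at 45 min against 49.6, 51.01 and 69.4 CPM in basal samples (log2 fold change -1.04, SE 0.23, adjusted p = 0.00202), and Slc7a3 at 26.6 and 23.1 CPM against 44.4, 36.1 and 52.3 CPM (log2 fold change -0.84, SE 0.22, adjusted p = 0.0107). Aars measured 266 and 287 CPM against 428, 537 and 462 CPM (log2 fold change -0.78, SE 0.14, adjusted p = 0.000204) and Cars 26.6 and 33.9 CPM against 52.8, 45.1 and 48.5 CPM (log2 fold change -0.68, SE 0.21, adjusted p = 0.0348). Lars and Tars were lower by 1.57-fold and 1.505-fold, and Atf5 was 1.502-fold higher, just at the fold limit. For Ddit3, Slc7a3, Aars and Cars both Bic samples lay below all basal samples. The count was 1 without Bic 45 min replicate 1 and 3 without Bic 45 min replicate 2 or basal replicate 5. At this time 6 of 10 astrocyte markers were called higher (5212 to 5914 against 2639 to 3242 CPM summed), 4 of 7 of the oligodendrocyte lineage (1313 to 1536 against 752 to 1198 CPM) and 3 of 8 neuronal ones (6582 to 6618 against 5237 to 5466 CPM). Their part was not tested.

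KCl and Bic were compared at the matched time of 180 min. Slc38a2 was called, with 1004 and 954 CPM in KCl and 570.3 and 479.8 CPM in Bic samples (log2 fold change 0.90, SE 0.21, adjusted p = 0.0315), against 0.732% of all genes, but not without any 1 of the 4 samples. For Atf4 the difference was 0.27, with a 95% interval of 0.00 to 0.55. Over time, 3 genes were called between 180 and 15 min of KCl (3.71% of all genes): Slc38a2 (486 and 532 CPM at 15 min, log2 fold change 0.94, SE 0.22, adjusted p = 0.00750), Ddit4 (41.5 and 25.3 CPM at 15 min and 47.7 and 71.2 CPM at 180 min, log2 fold change 0.87, SE 0.25, adjusted p = 0.0362) and Slc7a5, which was lower at 180 min (80.8 and 104 CPM, log2 fold change -0.71, SE 0.20, adjusted p = 0.0361). Leaving out KCl 15 min replicate 2 or KCl 180 min replicate 2 brought this to 0, and leaving out replicate 1 of either time to 1. Between 180 and 15 min of Bic none was called (0.682% of all genes, with 4 at an unadjusted p under 0.05 in edgeR, against 11.4% of all genes, and 0 by DESeq2).

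Values for 21DIV neurons in KCl from the 2 experiments are set side by side, because the tables were normalized separately and the difference between them was not tested. At 15 min the log2 fold change of Ddit3 was 1.40 in the maturation and -0.71 in the stimuli experiment, that of Slc3a2 1.34 and 0.15, and that of Trib3 2.48 and 0.49. At 180 min, Sesn2 gave 2.54 and 0.68, Slc38a2 0.19 and 1.18, and Atf4 0.71 and 0.63. Atf4 was the gene called higher in both at 180 min, and Slc7a5 in both at 15 min. The transcript that represented Atf4 differed between the experiments. Basal levels of Ddit3 were 32.5, 15.6 and 18.6 CPM in the first and 49.6, 51.01 and 69.4 CPM in the second experiment, and those of Slc38a2 146, 389 and 381 CPM and 397, 446 and 454 CPM.

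Genes around the ATF4 step were read from further lists. Ppp1r15a, the stress-induced subunit that directs a phosphatase to eIF2, was the gene of the eIF2 list (14 genes) called most often. Its log2 fold change was 1.48 and 2.37 after 15 and 180 min of KCl in 21DIV neurons of the maturation experiment, 1.56 after Bic4AP for 180 min and 1.01 after KCl for 180 min at 7DIV. In the stimuli experiment it was -0.83 after 15 min and 1.03 after 180 min of KCl. It was -1.06 between the stages, -2.13 in TTX and 1.22 after 180 min of withdrawal, and at 45 min of Bic it was -0.70. Ppp1r15a was also called lower after 15 min of Bic and higher after 45 min of withdrawal. The kinases themselves were called in 1 stimulus comparison, with Eif2ak3, the kinase of the endoplasmic reticulum, higher by 1.75 after Bic4AP for 180 min (adjusted p = 0.0153).

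In the list for the other arms of the unfolded protein response, IRE1 and ATF6, 8 of 15 genes tested were called higher after Bic4AP for 180 min at 21DIV, 4 and 2 after KCl for 15 and 180 min, and 5 were called lower in TTX. The shares of all genes were 7.39%, 3.2% and 2.98% higher, and 10.8% lower in TTX. Between the stages, Creld2, Herpud1, Pdia6 and Xbp1 were called lower at 21DIV, 4 of 13 tested, against 14.9% of all genes. Hspa5, the main chaperone of the endoplasmic reticulum, differed by 1.24 after KCl for 180 min and -0.93 in TTX, and Xbp1, the factor spliced by IRE1, by 0.86 after Bic4AP and -1.27 in TTX. At 180 min of withdrawal 1 gene of this list was called, against 14.0% of all genes. For the lists that follow, 10.8% of all genes were called lower in TTX and 10.8% higher. The cytosolic synthetases outside the set, with their scaffold (11 genes), had 3 called lower in TTX and none higher. Of the mitochondrial synthetases (16 tested), 1 was called higher and 1 lower. Their median log2 fold changes in TTX were -0.31 and -0.15, compared with -0.74 for the 12 synthetases of the set. Transporters outside the set (12 tested) had 2 called higher and 2 lower in TTX, where the set had 3 of 6 lower and 1 higher. Other enzymes of serine, glycine and one-carbon metabolism went the other way in part, with 4 of 13 higher in TTX, among them Cbs, which makes cystathionine (1.36), and 2 lower. As a check of the stimuli, the activity-regulated genes Npas4 and Fos differed by -2.83 and -2.32 in TTX and by 3.13 and 2.27 after 180 min of Bic, at which no gene of the set was called.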

How the data were processed

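RNA of primary mouse forebrain neurons was made into CEL-Seq2 libraries, which read the 3' end of transcripts. The authors aligned reads with STAR to mm10, and the deposited counts per RefSeq transcript come from ESAT. Whether molecular identifiers were collapsed and strand was used is not given in the sources used here. Transcripts were joined to gene symbols through RefSeq (GRCm38.p6), and the transcript with most counts represented each gene. For Atf4, Vldlr, Mthfd2 and Cars this transcript differed between the experiments. In the maturation and stimuli tables, 80.754% and 80.872% of transcripts matched, and 18.53% and 19.25% of counts fell on unmatched ones and were left out. No library pair agreed within sampling noise (chi-square per degree of freedom 2.166 to 20.24).

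The 38 genes and all lists were chosen with earlier results of these data known. Testing required more than 5 CPM in at least 2 samples and was done with edgeR 4.0.16 in R 4.3.3 (TMM normalization, quasi-likelihood F test, no replicate term), in 3 fits: the 6 basal samples of the maturation experiment for the stage comparison, all 28 samples of that experiment for its stimuli, and all 27 samples of the stimuli experiment. The difference of responses between stages was an interaction term. The standard error (SE) is the size of the log2 fold change divided by the square root of F, and 95% intervals are normal approximations from it. For each comparison the text gives per-sample values of the 4 called genes with the largest log2 fold change, and of Atf4 where described. Levels are TMM-normalized CPM. Alternatives were DESeq2 1.42.0, size factors in place of TMM, no filter, summed transcripts, a replicate term, a fit of all maturation samples for the stage comparison and leaving out each sample. The steps were tested on simulated counts. The promoter sequence of 1 gene is not reported here.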

Additional observations from a re-analysis of the deposited data

Results flagged for a closer look

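A test of the difference between the 21DIV and the 7DIV response at 180 min passed for 3 results of the set, over 37 genes and 2 stimuli. Of all genes, 0.775% passed for KCl and 4.94% for Bic4AP, and the set's Bic4AP count of 2 lies near that share. For KCl, the log2 response of Chac1 was 1.97 higher at 21DIV than at 7DIV. For Bic4AP, the response of Gars was 0.52 higher at 21DIV, and that of Slc38a2 differed by -1.34. The Chac1 difference was called without each of the 12 samples in turn, the Gars difference in 1 and the Slc38a2 difference in 6 of 11 such fits, and the Bic4AP differences were not called with the replicate block.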

How the results depend on the processing

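Of 1562 alternative values for the 142 called gene results, 0 reversed and 242 lost their call: 181 with a sample left out, 26 with the replicate block, 25 with summed transcripts, 6 with DESeq2, 2 with other size factors and 2 without a filter, and 0 in the fit of all 28 samples. Deviations of same-numbered samples from their group means were little correlated (-0.0351 to 0.0289 at 7DIV, -0.247 to 0.114 at 21DIV and -0.0933 to 0.103 in the stimuli experiment). With groups of 2 to 4 samples, these correlations cannot tell whether same-numbered samples came from the same culture. For 1 basal sample of the stimuli experiment the labels give 5 and 2. With the replicate block, the count of called genes went from 2 to 1 for 7DIV KCl at 180 min, from 2 to 0 for the Bic4AP stage difference, from 2 to 1 for KCl at 15 min and at 180 min in the stimuli experiment, from 7 to 3 for Bic at 45 min, from 1 to 0 for KCl against Bic and from 1 to 0 for 21DIV KCl at 180 against 15 min. No other count moved by over 1.5 times with the block, and it was 17 for the stages, 20 for TTX and 12 for TTXw at 180 min. With counts summed over transcripts the counts were 1 for 7DIV KCl at 180 min, 1 for the Bic4AP stage difference, 1 for KCl at 15 min and 3 for Bic at 45 min in the stimuli experiment, and 0 for KCl against Bic and for KCl at 180 against 15 min in either experiment. Without a filter they were 2 for 7DIV Bic4AP at 180 min, 6 for the KCl stage difference and 2 for 21DIV KCl at 180 against 15 min. DESeq2 gave 5 for the KCl stage difference, 4 for that of Bic4AP and 0 for KCl against Bic. The causes were not tested.

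With 1 sample left out, the counts ranged from 1 to 1 for 7DIV KCl at 180 min, 8 to 13 and 7 to 15 for 21DIV KCl at 15 and 180 min, 7 to 15 for 21DIV Bic4AP at 180 min, 1 to 6 and 0 to 6 for the KCl and Bic4AP stage differences, 0 to 1 and 4 to 11 for 180 against 15 min of KCl and Bic4AP at 21DIV. In the stimuli experiment they ranged from 0 to 5 and 1 to 2 for KCl at 15 and 180 min, 0 to 1 and 1 to 6 for Bic at 15 and 45 min, 0 to 0 for KCl against Bic and 0 to 1 for KCl at 180 against 15 min. Groups of 2 samples and genes with few counts per library, such as Trib3, Sesn2, Nupr1 and Cth, limit what small changes could be seen.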
